A study of Mus musculus with 98 samples.

Results

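The Hox genes of the mouse thymic stroma were followed from the embryo to young adulthood. Members were all genes of the single-cell development table whose symbol is Hox, a cluster letter from a to d and a number. The rule gave 34 of 22231 genes. It gave 28 of 20760 genes in a single-cell table of newborn wild-type and Tbx1+/-Crkl+/- thymi, and 33 of 39179 genes in bulk RNA-seq counts of sorted stroma.

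Hox genes encode homeodomain transcription factors that give cells their position along the head-to-tail axis. They lie in 4 clusters, and their order along each chromosome follows the order in which they are expressed along the body, so that low-numbered (anterior) genes are used towards the head and high-numbered (posterior) genes towards the tail. The thymus forms from the third pharyngeal pouch and the neural crest mesenchyme around it, and Hoxa3 is required for that organ to form. HOX proteins bind DNA together with TALE homeodomain cofactors of the Pbx, Meis and Pknox families. Medullary thymic epithelium is also known to transcribe, in few cells at a time, many genes that belong to other tissues.

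The development data were 8 single-cell 3' libraries of wild-type C57BL/6 stroma sorted as Ter119-CD45-EpCAM- cells. Embryonic days E12.5 and E13.5 had 1 library each, and E16.5, birth (P0) and 4 weeks had 2 each. Embryonic thymi of the earliest ages were pooled from 2 litters. These cells carry 19 deposited subtype labels of nonepithelial thymic stroma (NETS): 7 capsular (CapFb1a to CapFb4) and 4 medullary (MedFb1a to MedFb2b) fibroblast subtypes, mesothelium (Mes), neural crest cells (NC), pericytes (Pc), vascular smooth muscle (VSM), proliferating cells (Pr), and arterial (EnA), capillary (EnC) and venous and lymphatic (EnVL) endothelium. The second single-cell set was total Ter119-CD45- stroma, fixed in RNAprotect, of newborn Tbx1+/-Crkl+/- mice (3 libraries) and wild-type littermates (3 libraries), including thymic epithelial cells (TEC). The bulk set was wild-type: CD31+ endothelium, Ly51+gp38- mural cells, gp38+CD26+ and gp38+CD26- fibroblasts, cortical (cTEC) and medullary (mTEC) epithelium at P0 and 4 weeks, and mTEChi and mTEClo at 4 weeks, with 6 libraries in each group.

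The development libraries held 28583048 to 93040640 UMIs over 36208 cells, and the newborn genotype libraries 4978011 to 31418527 UMIs over 21451 cells. Bulk libraries held 5785352 to 15852166 gene counts. A gp38+CD26+ library at 4 weeks held 25702 counts and was left out, so that this group had 5. Levels are CPM, the counts scaled to a total of 1000000, of the UMIs summed over the cells of 1 library and 1 label, or of the gene counts of 1 bulk library. Differences between bulk populations, ages and genotypes were called at an adjusted p of at most 0.05 in edgeR's quasi-likelihood test over all genes. Differences between single-cell subtypes were not tested, because the labels were made from the same cells. Tbx1 was counted 0, 0 and 8 times in the 3 libraries labelled heterozygous against 13, 6 and 19 times in their littermates. Scaled to depth this was 0, 0 and 0.872 CPM against 1.79, 0.441 and 0.605 CPM, which overlap. Crkl was at 23.6 to 26.9 CPM against 18.4 to 25.1 CPM, so that Crkl was not lower in the libraries labelled heterozygous. Development cells of E16.5, P0 and 4 weeks were sorted from 2 thymi for each age, and the genotype libraries from 3 newborns of each genotype. For the bulk libraries the sources used here do not say which came from separate animals. The p-values there thus measure the spread between libraries, which may be technical. Sample numbers in the bulk labels repeat at a fixed step across the populations of an age. Populations may thus share animals or preparations, which the labels do not state, and the fits took them as unpaired. In bulk samples and in summed cells, fewer cells that express a gene and less RNA per cell cannot be told apart.

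In GRCm38 the Hoxa cluster lies on chromosome 6, Hoxb on chromosome 11, Hoxc on chromosome 15 and Hoxd on chromosome 2. Hoxa2 spans chr6:52162417-52164831 and Hoxa5 chr6:52201754-52204587, both on the minus strand. Hoxb2 spans chr11:96350525-96354012, Hoxb13 chr11:96194316-96197447, Hoxc4 chr15:103018934-103036852 and Hoxd8 chr2:74704615-74707933, all on the plus strand. The annotated spans of Hoxa3 and Hoxc5 enclose neighbouring members, Hoxd3 overlaps Hoxd4, and Hotairm1, Hoxb3os, Hoxb5os and Hoxd3os1 are antisense partners, so that the division of reads among these genes is uncertain. Promoters of 4 members, chosen after their values were seen because they carry the subtype and age patterns below, are shown, each as the 150 bases before the RefSeq start and ending where the annotated gene begins (114 bases for Hoxd9). Capitals mark CCAAT boxes and the Pbx-Hox type motif TGATTGAT on either strand.
Hoxa2, chr6:52164832-52164981, - strand: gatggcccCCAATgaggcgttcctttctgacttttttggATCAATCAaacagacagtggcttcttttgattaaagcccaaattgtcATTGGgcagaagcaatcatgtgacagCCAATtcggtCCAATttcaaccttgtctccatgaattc
Hoxa5, chr6:52204588-52204737, - strand: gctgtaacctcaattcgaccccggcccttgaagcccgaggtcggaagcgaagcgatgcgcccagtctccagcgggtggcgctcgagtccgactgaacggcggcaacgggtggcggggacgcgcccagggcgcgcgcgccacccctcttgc
Hoxd8, chr2:74704465-74704614, + strand: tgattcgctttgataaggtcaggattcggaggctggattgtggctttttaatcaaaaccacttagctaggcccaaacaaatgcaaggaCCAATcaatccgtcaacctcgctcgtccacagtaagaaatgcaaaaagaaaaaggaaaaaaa
Hoxd9, chr2:74697613-74697726, + strand: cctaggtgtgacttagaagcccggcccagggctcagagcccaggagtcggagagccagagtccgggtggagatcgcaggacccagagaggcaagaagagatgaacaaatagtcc

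The Hoxa2 promoter held 4 CCAAT matches and 1 TGATTGAT match, written above as ATCAATCA. The Hoxd8 promoter held 1 CCAAT match, and the Hoxa5 and Hoxd9 windows held none of the motifs searched. RefSeq gave promoters for 19 of the 34 members, 21 promoters in all. TGATTGAT was in 2 of these 21 against 0.347% of 32851 mouse promoters, and TGATTTAT in 0 against 0.496%. CCAAT was in 10 of 21 against 24.5% of all promoters, GGGCGG in 5 against 28.6%, TATAAA in 2 against 7.57% and CACGTG in 3 against 4.30%. These are matches of letters on both strands, with no call on factor binding.

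Across the 8 development libraries the stroma expressed the anterior part of the Hox code. Of the 34 members, 18 reached a mean of 5 CPM in at least 1 subtype and 11 reached 20 CPM (Hoxa2, Hoxa3, Hoxa4, Hoxa5, Hoxb2, Hoxb3, Hoxb4, Hoxb5, Hoxc4, Hoxd8 and Hoxd9). Hoxc10 and Hoxd11 had no UMI, and 14 members had fewer than 100 UMIs in all cells. Hoxb2, a gene of the hindbrain and branchial arches, had the most UMIs (25093), followed by Hoxb4 (13023) and Hoxa3 (12623). Shares of the Hox level were taken from the mean CPM over libraries, each library weighing the same. In pooled fibroblasts Hox1 to Hox3 genes gave 55.7% of the Hox level and Hox4 and Hox5 genes 39.7%. Hox6 to Hox8 genes gave 4.1% and Hox9 to Hox13 genes 0.5%. In mural cells (Pc and VSM) the same shares were 67.4%, 27.8%, 4.0% and 0.8%. Endothelium had a different make-up, with 27.1%, 37.7%, 27.7% and 7.6%. In CPM, Hox6 to Hox8 genes summed to 56.6 in endothelium against 10.7 in fibroblasts and 8.9 in mural cells, and Hox9 to Hox13 genes to 15.5 against 1.2 and 1.7. The Hoxd cluster made up 30.6% of the Hox level in endothelium and 6.3% in fibroblasts, and the Hoxc cluster 0.5% and 5.9%. The summed level of all Hox genes was 260 ± 198 CPM in fibroblasts, 226 ± 99.9 CPM in mural cells and 204 ± 49.96 CPM in endothelium (SD, n = 8 libraries), which overlap. SDs of the development libraries, here and below, span 5 ages and so include the differences among ages. Their overlap does not show that levels are alike.

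**Figure D1:**
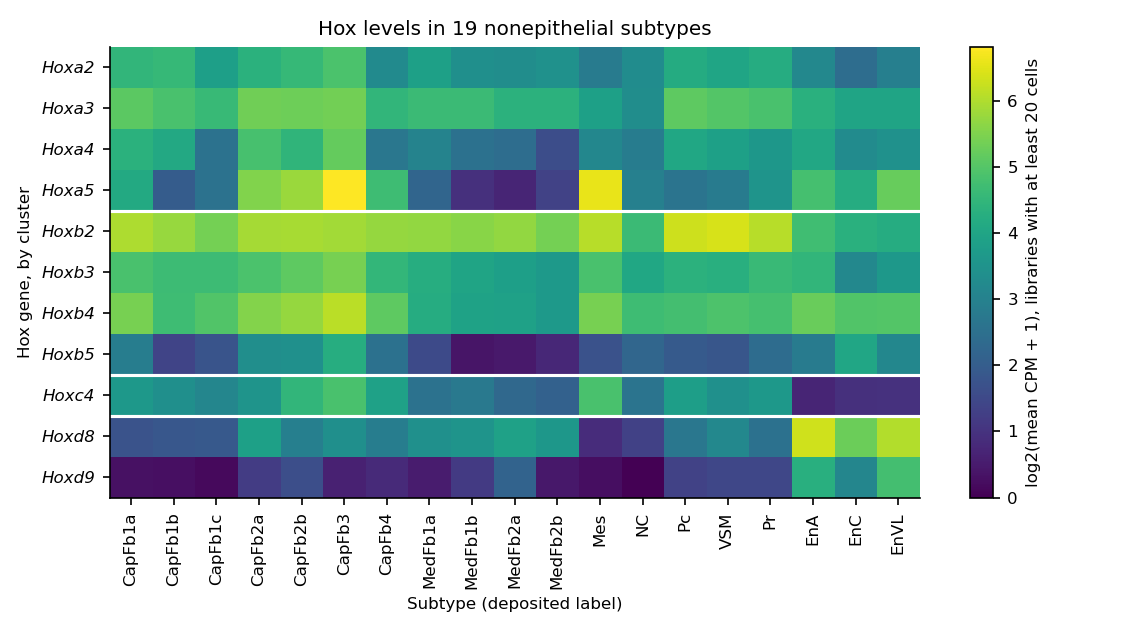
Heat map of the 11 Hox genes that reached a mean of 20 CPM (rows, by cluster) in 19 subtypes (columns), coloured by log2 of the mean CPM plus 1 over development libraries with at least 20 cells of the label. Hox2 to Hox5 genes fill most columns, Hoxa5 is brightest in Mes and CapFb3, and Hoxd8 and Hoxd9 in the endothelial columns.

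Hoxb2 was the most even member. It was at 20 CPM or more in 17 of 19 subtypes and at 5 CPM or more in all 19. Its highest mean was in VSM (83.5 ± 35.6 CPM, SD, n = 8), where the libraries held 165.4 CPM at E12.5, 78.25 at E13.5, 77.996 and 85.6 at E16.5, 52.0 and 51.9 at P0, and 83.1 and 73.3 at 4 weeks. Pericytes (77.9 ± 34.4 CPM) and proliferating cells (66.9 ± 33.4 CPM) did not differ from VSM beyond these SDs. The lowest mean, 17.6 ± 5.7 CPM, was in EnVL. Hoxa3 was level in CapFb3 (40.1 ± 18.9 CPM), CapFb1c (39.9 ± 48.7 CPM) and CapFb2a (39.8 ± 21.6 CPM). CapFb3 ranked first in 0 of 8 libraries, and VSM had the highest median. Hoxb3 had its highest mean in CapFb3 (41.3 ± 23.4 CPM), and both genes were lowest in neural crest cells (4.54 and 7.91 CPM). Hoxa2, the selector gene of the second branchial arch, was at 28.7 ± 27.4 CPM in CapFb3 and 22.7 CPM in each of CapFb1b and CapFb2b, and at 4.36 CPM in mesothelium.

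Hoxa5, a gene needed for lung development, was concentrated in the mesothelium and in the capsular fibroblast subtype CapFb3. In mesothelium its libraries held 0 CPM at E12.5, 2.54 at E13.5, 105.1 in the only E16.5 library with enough cells, 136.7 and 227.5 at P0, and 160.1 and 177.1 at 4 weeks (mean 116 ± 86.6, n = 7). That E16.5 library held 5 mesothelial cells and the second P0 library 7. Over libraries with at least 20 cells, CapFb3 had the highest mean of Hoxa5. Mesothelium at E12.5 already had Upk3b (1028 CPM) and Wt1 (259 CPM) but no UMI of Msln. In CapFb3 every library was high, with 97.5 CPM at E12.5, 190 at E13.5, 80.4 and 89.3 at E16.5, 100.5 and 86.1 at P0, and 104.8 and 144.2 at 4 weeks. A Hoxa5 UMI was present in 55.3% of mesothelial cells and 59.4% of CapFb3 cells, against 0.833% of MedFb1b cells, where its level was 0.805 CPM. CapFb2b lay between, at 54.1 ± 24.1 CPM.

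Hoxc4 and its neighbours Hoxc5 and Hoxc6 had their highest means in CapFb3 as well, at 27.9 ± 16.7, 9.07 ± 4.98 and 6.42 ± 6.03 CPM. Hoxc4 was at 21.5 CPM in mesothelium and 21.4 CPM in CapFb2b, and close to 0 in endothelium (0.563 CPM in EnA). Hoxa4, Hoxb4 and Hoxb5 had their highest mean in CapFb1c, at 63.4, 70.3 and 23.0 CPM, and that rested on 10 cells at E12.5, which alone held 473.3, 352.6 and 167.04 CPM. Without that library the CapFb1c means were 4.88, 29.98 and 2.41 CPM, and CapFb3 held 36.0 ± 43.8, 68.4 ± 50.5 and 17.8 ± 8.1 CPM over all libraries.

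Hoxd8 and Hoxd9 ran the other way, towards endothelium. Hoxd8 was highest in EnA (70.02 ± 52.2 CPM), EnVL (64.5 ± 34.03 CPM) and EnC (37.6 ± 23.1 CPM), and Hoxd9 in EnVL (26.4 ± 17.8 CPM), EnA (16.49 ± 13.3 CPM) and EnC (7.79 ± 7.09 CPM). In EnVL the Hoxd8 libraries held 2.04 CPM at E12.5, 20.6 at E13.5, 76.9 and 75.0 at E16.5, 83.5 and 79.2 at P0, and 99.3 and 79.6 at 4 weeks. Both embryonic libraries before E16.5 were low and all later ones high. In none of the members did the highest and the second-highest subtype differ by more than their SDs, which span all the ages. Members between 5 and 20 CPM had other peaks, with Hoxa7 in mesothelium (7.67 CPM), Hoxd3 in CapFb1c (11.2 CPM), and Hoxb8 and Hoxb9 in neural crest cells (8.37 and 8.29 CPM, from 7 to 293 cells a library). The remaining 16 members stayed below 5 CPM in every subtype.

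**Figure D2:**
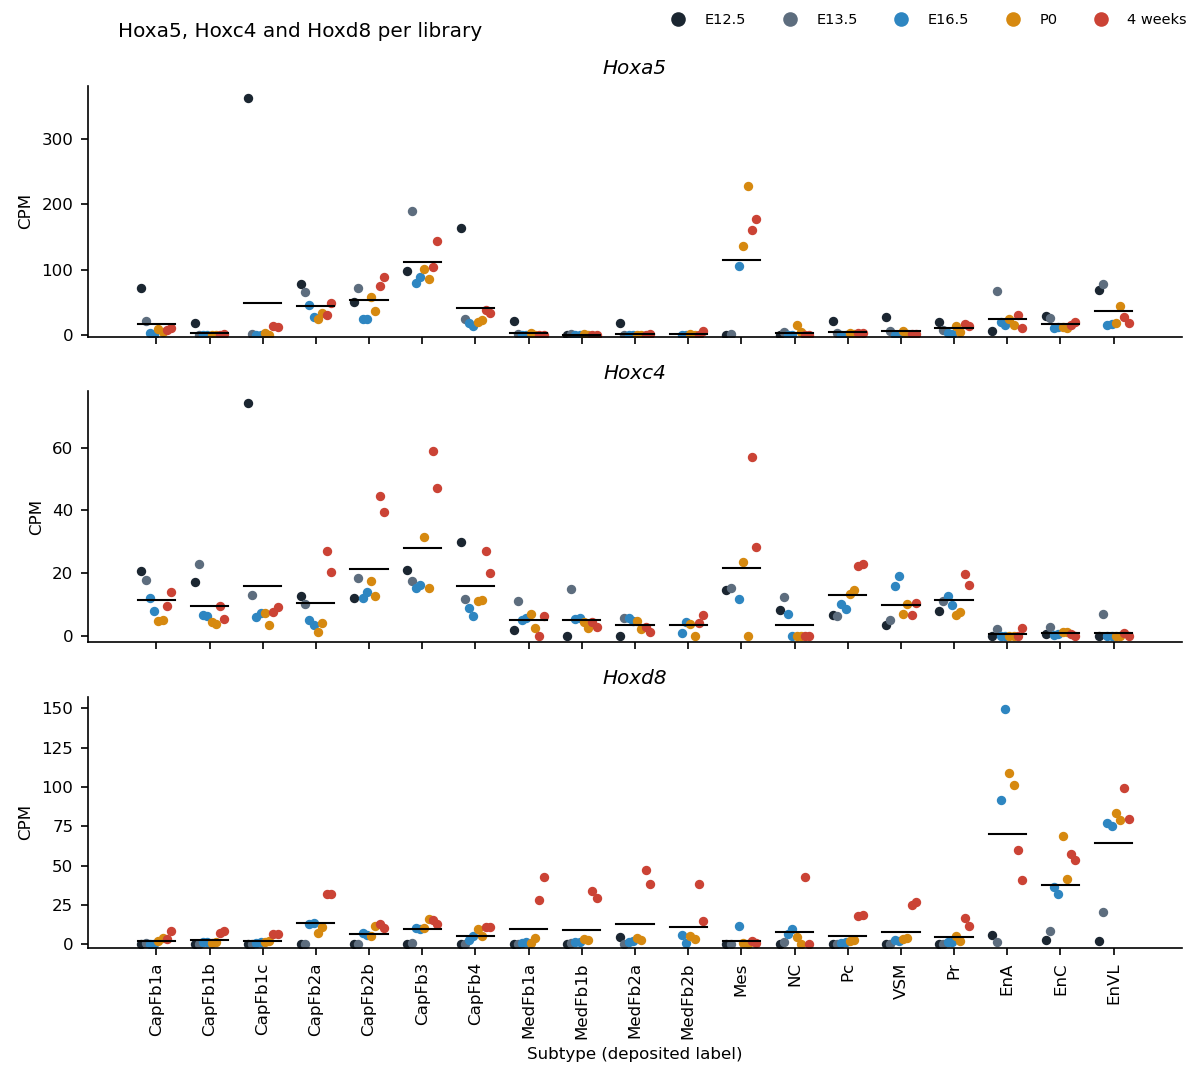
Level (CPM) of Hoxa5, Hoxc4 and Hoxd8 in each development library with at least 5 cells of a subtype, for the 19 subtypes, coloured by age, with a bar at the mean. Hoxa5 stands out in Mes and CapFb3, and Hoxd8 in EnA, EnVL and EnC, where the E12.5 and E13.5 points lie low.

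The genes whose mean level over the 19 subtypes ran most closely with a member were found among 9473 expressed genes (Pearson's r of log2 mean CPM plus 1, a description over subtypes that share libraries). They were Mmp11 for Hoxb2 (r = 0.95), Gpc3 for Hoxc4 (0.95), Flt1 for Hoxd9 (0.93), Cxxc1 for Hoxa3 (0.92), Shox2 for Hoxa2 (0.92), Fgd6 for Hoxd8 (0.90), Hoxb4 for Hoxa4 (0.89), Hmcn1 for Hoxa5 (0.87) and Sulf1 for Hoxb3 (0.87). Members of other clusters were among the closest genes of Hoxa4, Hoxa5, Hoxb4 and Hoxb5, and Hoxd9 was the third closest to Hoxd8 (0.89).

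Hox levels differed among the ages in most subtypes. In pooled fibroblasts Hoxa2 was at 70.8 CPM at E12.5, 28.8 at E13.5, 10.54 and 10.6 at E16.5, 9.73 and 8.95 at P0, and 9.29 and 8.21 at 4 weeks. Hoxa4 was at 104, 18.4, 4.17 and 4.76, 5.83 and 5.54, and 6.44 and 7.49 CPM at the same ages. Both genes lost most of their level before E16.5. Hoxa2 then stayed between 8.21 and 10.6 CPM, whereas both 4-week libraries of Hoxa4 lay above those of E16.5 and P0. Hoxd8 was at 0.0679, 0.340, 2.58 and 2.94, 4.39 and 4.50, and 23.6 and 19.5 CPM. Its 2 libraries at 4 weeks were above all others. Hoxb2 declined less, from 130 and 73.1 CPM to 47.0 in both E16.5 libraries and 39.7 and 39.2 at 4 weeks.

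Ages were compared within each of 11 subtypes with at least 20 cells in every library by a test for any difference among the 5 ages. This called 117 of 145 member and subtype pairs (80.7%), where 56.7% of all 135661 gene and subtype pairs were called. E12.5 and E13.5 have 1 library each. Among E16.5, P0 and 4 weeks alone, 58 pairs were called (47.5%), against 41.4% of all 123142. That share is near the background, and 58 of the 117 calls were made without the single-library ages. Direction is given below by the sign of the fitted difference of 4 weeks from E12.5, or from E16.5 where stated, in called pairs. The adjusted p beside it is that of the test for any difference among the ages.

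Hoxa2 was called in 10 of 11 subtypes and was lower at 4 weeks in 9 of them. Its fitted log2 difference was -2.38 in CapFb1a (adjusted p = 5.64e-08), -2.84 in MedFb1a (adjusted p = 8.71e-06) and -2.97 in Pr (adjusted p = 1.88e-05). The exception was EnC, where the libraries held 1.69 CPM at E12.5, 0.913 at E13.5, 2.67 and 2.96 at E16.5, 1.96 and 6.18 at P0, and 8.73 and 9.82 at 4 weeks (log2 difference 2.38, adjusted p = 0.0323). Hoxa3 (8 of 11), Hoxb2 (9 of 11), Hoxb3 (9 of 11), Hoxb4 (9 of 11) and Hoxd3 (8 of 9) were lower at 4 weeks in every subtype in which they were called. In CapFb1a the log2 differences were -1.99 for Hoxa3 (adjusted p = 2.10e-08), -1.40 for Hoxb2 (adjusted p = 6.76e-07), -1.64 for Hoxb4 (adjusted p = 7.43e-09) and -5.14 for Hoxa4 (adjusted p = 1.72e-11). In EnC and EnVL, Hoxa3, Hoxb2, Hoxb3 and Hoxb4 were not called, with adjusted p from 0.117 to 0.611. The difference between endothelium and fibroblasts in these age effects was not tested. Calls for Hoxa5, Hoxb4 and Hoxb5 rested in part on the E12.5 library, and without it fell from 11 to 7, from 9 to 5 and from 10 to 6 subtypes. From E16.5 on, called pairs of Hoxb2 were lower at 4 weeks in 5 subtypes and higher in 1, those of Hoxa2 lower in 3 and higher in 2, and those of Hoxd3 lower in 3. Those of Hoxa5 and Hoxb5 (5 subtypes each), Hoxb4 (3), Hoxa4 (2) and Hoxb3 (1) were all higher, and Hoxa3 was lower in 1 and higher in 1. These counts go by sign alone, and some differences were small (0.02 for Hoxa2 in Pc and -0.12 for Hoxb2 in VSM). The lower level of Hoxa4, Hoxb3 and Hoxb4 at 4 weeks thus refers to the comparison with the single E12.5 library.

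Hoxd8 was called in 11 of 11 subtypes, and was higher at 4 weeks in all 11. In MedFb1a its libraries held 0 CPM at E12.5, 0.240 at E13.5, 0.688 and 1.51 at E16.5, 0.949 and 3.96 at P0, and 28.2 and 42.9 at 4 weeks (adjusted p = 8.89e-08). In those 4-week MedFb1a libraries the endothelial markers Pecam1, Cdh5, Kdr and Tie1 summed to 9.71 and 7.14 CPM, against 3403 and 3326 CPM in endothelium. Over E16.5, P0 and 4 weeks Hoxd8 was called in 7 subtypes, all higher, with log2 differences of 4 weeks from E16.5 of 4.76 in MedFb1a, 3.63 in Pc and 3.30 in VSM, and it was not called in CapFb2b, CapFb3, EnC or EnVL (adjusted p 0.0691 to 0.758). Hoxd9 was higher at 4 weeks than at E12.5 in all 5 subtypes tested, and was called in 3 without the first 4-week library. From E16.5 on Hoxd9 was called in 4 of 5, all higher, and not in CapFb2b (-1.41, adjusted p = 0.443). In pericytes its libraries held 0 to 0.449 CPM up to P0 and 5.92 and 5.42 CPM at 4 weeks.

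Hoxc4 was called in 9 of 9 subtypes, higher at 4 weeks than in the single E12.5 library in 7 and lower in CapFb1a and CapFb1b. From E16.5 on it was called in 8 of 9, higher by sign at 4 weeks in 7 and lower in VSM (-1.06, adjusted p = 0.0273). The 7 hold CapFb1a (log2 difference 0.34, adjusted p = 0.0183) and CapFb1b, where 4 weeks hardly differed from E16.5 (0.04, adjusted p = 0.0297). These adjusted p are for any difference among E16.5, P0 and 4 weeks. Differences between subtypes in these age effects were not tested. In CapFb2b it was at 11.95 CPM at E12.5, 18.5 at E13.5, 12.03 and 14.1 at E16.5, 17.5 and 12.8 at P0, and 44.7 and 39.5 at 4 weeks (adjusted p = 7.98e-06). In CapFb3 both 4-week libraries (58.9 and 47.2 CPM) were also above every earlier library (15.4 to 31.5 CPM, adjusted p = 0.00688). Hoxc6 in CapFb3 had no UMI in the E12.5 or the E13.5 library and was at 3.25 and 3.36 CPM at E16.5, 10.6 and 4.99 at P0, and 14.5 and 14.6 at 4 weeks (adjusted p = 0.00212).

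**Figure D3:**
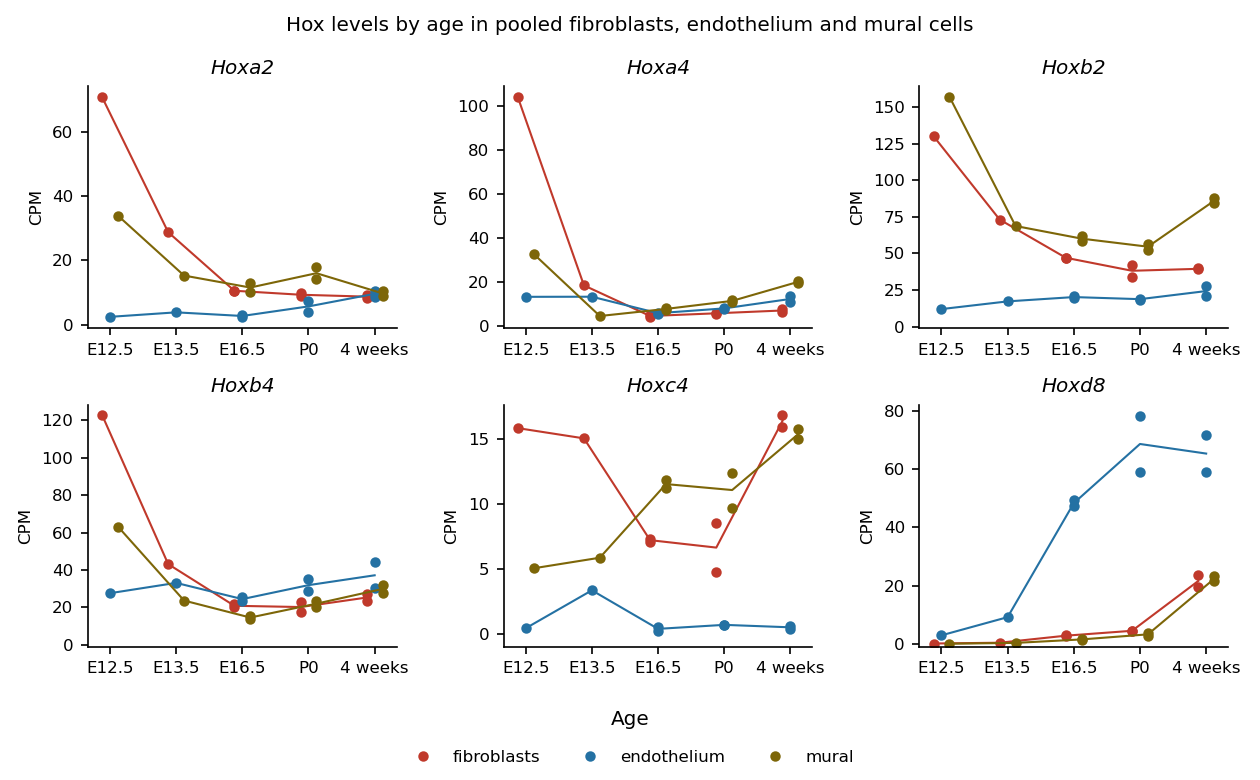
Level (CPM) of Hoxa2, Hoxa4, Hoxb2, Hoxb4, Hoxc4 and Hoxd8 in pooled fibroblasts, endothelium and mural cells, 1 point per development library, with lines through the mean of each age. Hoxa2 in fibroblasts falls from 70.8 CPM at E12.5 to about 10 CPM from E16.5 on, while Hoxd8 in fibroblasts and mural cells lies highest in the 4-week libraries.

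Sorted populations gave a separate assay for P0 and 4 weeks, in which counts depend on transcript length and genes are compared only with themselves. In CD26+ and CD26- fibroblasts the shares of members called between P0 and 4 weeks were near those of all genes. In gp38+CD26+ cells 2 of 11 tested members were called against 13.2% of all genes. Hoxc5 had a count in 1 of 6 libraries at P0 (1.68 CPM) and was at 41.1, 25.3, 31.1, 18.2 and 36.2 CPM in the 5 libraries at 4 weeks (adjusted p = 0.00310). Its call and that of Hoxc4 were lost with the DFCK libraries alone, 1 of the 2 label prefixes (adjusted p = 0.118 and 0.596), and with all 14 bulk groups in 1 fit (0.0588 and 0.276). Hoxc4 was at 0.265, 11.5 and 16.51 CPM (lowest, median, highest of 6) at P0 and at 28.2, 33.6, 40.6, 51.8 and 37.8 CPM at 4 weeks, a log2 difference of 2.10 (SE 0.61, adjusted p = 0.0405). The groups did not overlap, although the call was lost when any of 4 of the 5 libraries was left out (adjusted p 0.0634 to 0.0903 without replicate 3, 4, 5 or 6). The mesothelial markers summed to a median of 90.1 CPM at P0 and 4124 CPM at 4 weeks in this population, and erythroid markers to 0.592 and 1689 CPM; their part in the Hoxc difference was not tested.

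In gp38+CD26- cells 2 of 9 members were called against 24.3% of all genes. Hoxa2 went from 18.6, 26.04 and 41.4 CPM to 4.11, 11.1 and 19.8 CPM (log2 difference -1.19, SE 0.36, adjusted p = 0.0258), with a small overlap. Hoxa3 went from 4.32, 22.0 and 31.8 CPM to 2.33, 4.24 and 11.4 CPM (-1.71, SE 0.51, adjusted p = 0.0245), and its groups overlapped more. With the libraries of either prefix alone (3 libraries a group), or with all 14 bulk groups in 1 fit, both genes were still lower but neither was called (Hoxa2 -0.95 to -1.47, adjusted p 0.143 to 0.395; Hoxa3 -1.19 to -2.04, adjusted p 0.0586 to 0.456). Hoxd8 was at 0, 0.965 and 5.18 CPM at P0 and at 9.39, 18.8 and 23.6 CPM at 4 weeks. These groups did not overlap, and the log2 difference of 3.29 (SE 1.15) missed the threshold (adjusted p = 0.0522). Endothelial markers summed to at most 6.12 CPM in the 4-week libraries of this population. Between P0 and 4 weeks the median sum of erythroid markers went from 0.133 to 1908 CPM and that of TEC markers from 46.7 to 11.9 CPM. That of mesothelial markers went from 43.2 to 7.41 CPM, of haematopoietic markers from 20.1 to 1.93 CPM and of cartilage markers from 241 to 77.3 CPM. The part of these markers in the differences was not tested. In cTEC, 1 of 6 members was called against 22.3% of all genes. This was Hoxa2, which went from 47.4, 50.8 and 58.5 CPM to 23.9, 28.5 and 44.8 CPM without overlap (-0.62, SE 0.18, adjusted p = 0.0226). That call too was lost with either prefix alone (adjusted p = 0.360 and 0.0683) and with all groups in 1 fit (adjusted p = 0.826). Fibroblast markers summed to a median of 56.4 CPM in cTEC at P0 and 684 CPM at 4 weeks, mesothelial markers to 1.23 and 335 CPM, haematopoietic markers to 11.4 and 521 CPM, and erythroid markers to 0.107 and 162.8 CPM; their part in the difference was not tested.

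No member was called by edgeR between the ages in CD31+ cells (0 of 13, where 5.09% of all genes were called), Ly51+gp38- cells (0 of 10, 11.9%) or mTEC (0 of 12, 5.99%). At an unadjusted p of at most 0.05 these counts were 2, 3 and 0, and DESeq2 called 2, 2 and 0. Here and below, the share of all genes at that unadjusted p, or by DESeq2, is not given beside such counts. They are thus not read as an excess. Hoxa2 in CD31+ cells was at 0.585, 5.07 and 10.7 CPM at P0 and 9.84, 20.2 and 22.9 CPM at 4 weeks (log2 difference 1.93, SE 0.71, adjusted p = 0.155). Hoxd9 in the same cells was at 12.48, 17.3 and 30.8 CPM and then at 27.9, 39.8 and 53.1 CPM (1.10, SE 0.34, adjusted p = 0.0838). Mural markers in CD31+ cells summed to a median of 62.3 CPM at P0 and 1183 CPM at 4 weeks, and erythroid markers to 31.8 and 2322 CPM. Their part in these values was not tested. Hoxd8 in Ly51+gp38- cells had counts in 2 of 6 libraries at P0 and in 6 of 6 at 4 weeks (0.671, 6.09 and 16.8 CPM, adjusted p = 0.142). DESeq2 called this difference (3.84, adjusted p = 0.0431). Endothelial markers in this population summed to a median of 3.89 CPM at P0 and 38.1 CPM at 4 weeks (highest 130.9 CPM), and their part in the Hoxd8 values was not tested.

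At P0 the mean of both gp38+ populations differed from CD31+ cells in 13 of 20 tested members, where 34.6% of all genes were called, and 5 were higher in fibroblasts and 8 in endothelium. Hoxc4 had no count in 6 of 6 CD31+ libraries and had counts in 11 of 12 fibroblast libraries. It was at least 302-fold higher in fibroblasts against a floor of 3 counts over the group (adjusted p = 1.03e-05). Here and below, a fold given as at least divides the observed mean by that floor. It leaves out the spread of the group with counts and is no lower limit in that respect. Hoxd3 (13.0 against 0.404 CPM, log2 difference 5.04, SE 1.11, adjusted p = 0.000712) and Hoxc5 (at least 25.4-fold, from 3 of 12 libraries, adjusted p = 0.0285) were also higher in fibroblasts. Higher in endothelium were Hoxb7, at least 208-fold (adjusted p = 4.31e-05), Hoxa9, at least 54.6-fold (adjusted p = 0.00391) and Hoxd10, at least 51.5-fold (adjusted p = 0.00525). Hoxa9 and Hoxd10 each had counts in only 2 of 6 CD31+ libraries, with means of 1.18 and 1.11 CPM. Their fitted log2 differences were -6.79 (SE 1.56) and -6.64 (SE 1.60). Hoxd9 was at 12.48, 17.3 and 30.8 CPM in CD31+ cells and had counts in 1 of 12 fibroblast libraries (adjusted p = 0.00332). Hoxd8 was at 23.2, 41.8 and 68.99 CPM in CD31+ cells, against a fibroblast mean of 2.42 CPM (log2 difference -4.02, SE 1.30, adjusted p = 0.0163). Hoxb5 (-3.77, SE 1.27, adjusted p = 0.0198) and Hoxa7 (3.499 CPM in endothelium, adjusted p = 0.000190) completed the 10 largest. The other 3 called were Hoxa2 (25.02 against 5.14 CPM, adjusted p = 4.35e-05), Hoxb2 (17.4 against 5.71 CPM, adjusted p = 0.00917) and Hoxb4 (0.638 against 3.72 CPM, adjusted p = 0.00558).

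By 4 weeks this contrast had 6 of 27 members called, where 26.9% of all genes were called. The filter on low counts ran over all populations of an age, so the 27 include members without a count in fibroblasts or CD31+ cells. Hoxb13, Hoxc9 and Hoxc11 are examples, and these could not be called. The share of members is thus not compared with that of all genes or with that at P0. Hoxc4 was still without a count in CD31+ cells and had counts in 11 of 11 fibroblast libraries (at least 540-fold, adjusted p = 3.81e-05). Hoxd8 (37.7, 53.5 and 108.1 CPM in CD31+ cells, log2 difference -3.29, SE 1.03, adjusted p = 0.0144), Hoxd9 (-4.33, SE 1.25, adjusted p = 0.00982), Hoxb7 (adjusted p = 0.00597) and Hoxd10 (at least 320-fold, adjusted p = 0.00117) were higher in endothelium. Hoxb6 was at least 31.2-fold higher in fibroblasts with counts in 4 of 11 libraries (adjusted p = 0.0403), a call lost without gp38+CD26+ replicate 1 or 6 (adjusted p = 0.0527 and 0.0580). Hoxd8 and Hoxd9 were thus called higher in sorted endothelium, and Hoxc4 in sorted fibroblasts, at both ages. With the libraries of either label prefix alone, at least 1 of these calls was lost at 4 weeks. With the DFCK libraries alone, 4 members were called at P0.

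Between the fibroblast populations, 0 of 20 members were called at P0 (3.68% of all genes; 2 members at an unadjusted p of at most 0.05, and 1 by DESeq2). At 4 weeks 2 of 27 were called (6.26% of all genes), both higher in gp38+CD26+ cells. Neither was called with the libraries of either label prefix alone. Hoxc6 was at 1.86, 4.98, 7.59, 15.5 and 6.01 CPM in the 5 gp38+CD26+ libraries and had no count in 6 gp38+CD26- libraries, at least 183.5-fold higher (adjusted p = 0.0115). Hoxa7 was at 0.447, 5.19, 4.06, 4.37 and 12.6 CPM against a mean of 0.122 CPM (log2 difference 5.48, SE 1.65, adjusted p = 0.0372), a call lost without gp38+CD26+ replicate 3, 4, 5 or 6 (adjusted p 0.0509 to 0.0892). The mesothelial markers summed to a median of 4124 CPM in the CD26+ libraries against 7.41 CPM in the CD26- libraries at 4 weeks; their part in these differences was not tested. Against Ly51+gp38- mural cells the fibroblasts differed in 1 of 20 members at P0 (16.3% of all genes) and in 0 of 27 at 4 weeks (20.8%; 3 at an unadjusted p of at most 0.05, and 1 by DESeq2). The 27 again include members, such as Hoxb13, without a count in any of these populations, which could not be called. The P0 call was Hoxa7, which had counts in 1 of 12 and 1 of 6 libraries (adjusted p = 0.0213). Hoxb2 in mural cells was at 24.4, 30.8 and 40.6 CPM at P0 and 23.9, 29.1 and 52.0 CPM at 4 weeks.

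**Figure D4:**
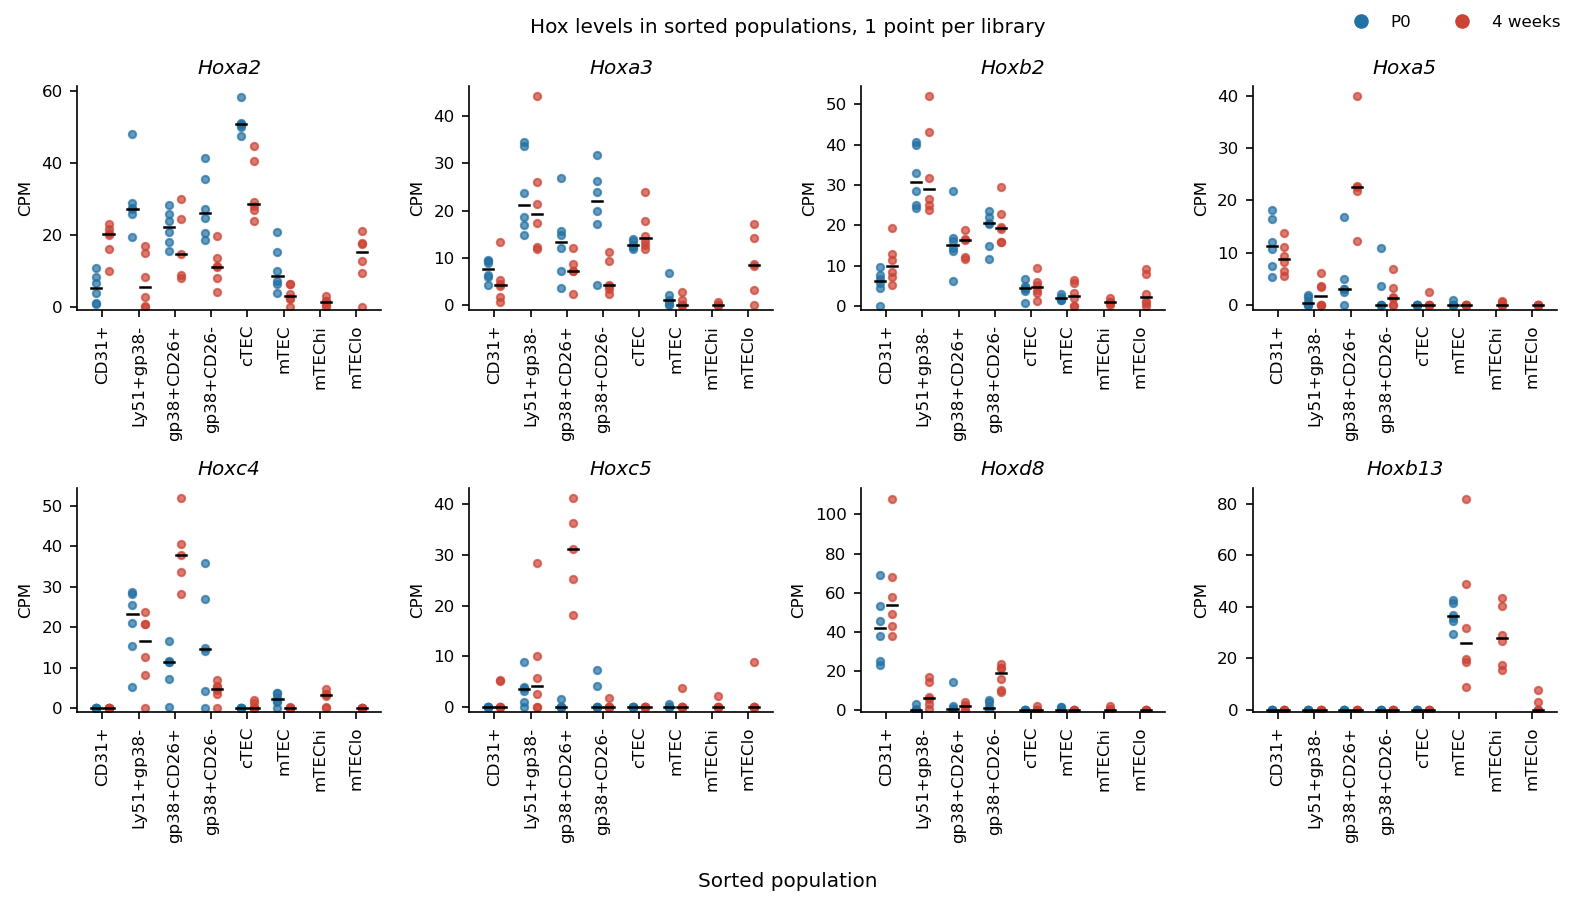
Level (CPM) of 8 Hox genes in each bulk library of 8 sorted populations at P0 (blue) and 4 weeks (red), with a bar at the median. Hoxc4 and Hoxc5 lie high in 4-week gp38+CD26+ cells, Hoxd8 in CD31+ cells, Hoxa2 in cTEC, and Hoxb13 in mTEC and mTEChi alone except for 2 of 6 mTEClo libraries.

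Cortical and medullary epithelium held different Hox genes. Relative to the mean of cTEC and mTEC, fibroblasts differed in 9 of 20 members at P0 (44.0% of all genes) and in 13 of 27 at 4 weeks (39.9%), shares near the background. The members tested include some that passed the low-count filter mainly through mTEC. At P0, Hoxc4 (log2 difference 6.39, SE 0.93, adjusted p = 4.27e-06), Hoxd3 (6.40, SE 0.92, adjusted p = 1.38e-06), Hoxb2 (2.71, SE 0.41, adjusted p = 1.55e-06), Hoxa3 (1.87, SE 0.42, adjusted p = 0.000395), Hoxa5, Hoxb4, Hoxc5 and Hoxd8 were higher in fibroblasts, and Hoxa7 was lower. For Hoxa3 the epithelial mean joined unlike populations, at 12.89 CPM in cTEC and 1.92 CPM in mTEC, beside 17.01 CPM in fibroblasts. Fibroblasts were not tested against cTEC alone, so this call does not place their Hoxa3 above that of cTEC. Hoxc5 had counts in 3 of 12 fibroblast libraries and Hoxd8 in 6 of 12, and the Hoxd8 difference changed sign with the TXCK libraries alone (-0.15, adjusted p = 0.9999). At 4 weeks the largest were Hoxd9 (at least 133-fold, adjusted p = 8.57e-05), Hoxa5 (6.97, adjusted p = 0.000158), Hoxd8 (6.63, adjusted p = 1.52e-05), Hoxc4 (6.40, adjusted p = 1.41e-05), Hoxc5, Hoxb5 and Hoxb4, all higher in fibroblasts. Hoxc11 (at least 166-fold, adjusted p = 5.26e-05), Hoxc10 (at least 82.4-fold, adjusted p = 0.00176) and Hoxa9 (adjusted p = 0.00367) were higher in epithelium, the last 2 with counts in 6 and 4 of 12 libraries. Without gp38+CD26+ replicate 3 the call for Hoxd3 was lost (adjusted p = 0.9999), as was that for Hoxd9 without replicate 6 (adjusted p = 0.9999).

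Hoxa2 and Hoxa3 were higher in cTEC than in mTEC at both ages. At P0 Hoxa3 was at 11.96, 12.7 and 13.97 CPM in cTEC and 0.0781, 1.05 and 6.93 CPM in mTEC (log2 difference -2.65, SE 0.61, adjusted p = 0.00106). Hoxa2 was at 47.4, 50.8 and 58.5 CPM in cTEC and 3.91, 8.52 and 20.8 CPM in mTEC (-2.19, SE 0.46, adjusted p = 0.000336). Neither gene overlapped between the populations. At 4 weeks both were again lower in mTEC (Hoxa3 -4.32, SE 1.11, adjusted p = 0.00308, and Hoxa2 -3.07, SE 0.99, adjusted p = 0.0161). Another 4 members were higher in cTEC at that age, each without a count in mTEC. Hoxa7 had counts in 6 of 6 cTEC libraries (mean 3.71 CPM, at least 76.96-fold, adjusted p = 0.00107) and Hoxb3 in 4 of 6 (2.19 CPM, adjusted p = 0.00956), while Hoxd8 (adjusted p = 0.0268) and Hoxa5 (adjusted p = 0.0413) rested on 1 of 6 libraries each. The 4-week cTEC libraries held up to 2551 CPM of fibroblast markers and 2380 CPM of mesothelial markers, and the mTEC libraries up to 651 and 876 CPM. Median sums of haematopoietic markers were 521 CPM in cTEC and 9.12 CPM in mTEC, and those of mural markers 359 and 2179 CPM. The part of these markers in the calls was not tested.

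Genes of several paralog groups were higher in mTEC, led by Hoxb13. It belongs to the tail end of the embryo and to the prostate, and was at 29.3, 36.3 and 42.5 CPM in mTEC at P0 with no count in any cTEC library, at least 780-fold higher (adjusted p = 1.54e-05). At 4 weeks it was at 8.81, 25.7 and 82.1 CPM in mTEC, again with no count in cTEC (at least 848-fold, adjusted p = 0.000199). No other non-medullary population had a Hoxb13 count at either age. Members found mainly in mTEC passed the low-count filter, which ran over all populations of an age, through mTEC itself. At P0, 10 of 11 Hox9 to Hox13 members had a count in mTEC and 0 in cTEC. The number and direction of calls at both ages are thus partly set by the filter. Their excess over all genes is not read as a result. In all, 10 of 20 members were called between mTEC and cTEC at P0, against 29.4% of all genes, 8 of them higher in mTEC. Beside Hoxb13 these were Hoxb6 (at least 256-fold), Hoxa9 (66.1-fold), Hoxc6 (52.5-fold), Hoxd3 (51.0-fold), Hoxc4 (48.0-fold), Hoxb7 (41.3-fold) and Hoxd10 (24.1-fold), each against cTEC libraries without a count. At P0 the median sums of other markers were also higher in mTEC than in cTEC, at 2544 against 133.8 CPM for mural cells, 929.6 against 1.23 CPM for mesothelium, 391 against 56.4 CPM for fibroblasts and 24.9 against 0.107 CPM for erythroid cells; their part in these calls was not tested. At 4 weeks 18 of 27 were called, against 30.8% of all genes, 12 higher in mTEC and 6 lower. DESeq2 called 12, of which 7 were higher and 5 lower. Only 5 members were called with the TXCK libraries alone and 1 with the DFCK libraries alone. The 10 largest of the 18 were Hoxb13, Hoxb6, Hoxd3, Hoxb7, Hoxc9, Hoxc6, Hoxc11 and Hoxa10, higher, and Hoxa7 and Hoxb3, lower. Hoxa10 rested on 1 of 6 libraries, and Hoxb6 on 3 of 6. The summed level of the Hox9 to Hox13 genes was 46.5, 49.1 and 73.4 CPM in mTEC at P0 and 30.2, 55.7 and 86.1 CPM at 4 weeks.

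Whether 4 of these bulk contrasts changed from P0 to 4 weeks was examined in 30 members by edgeR's interaction test over all genes. It called 1 member for gp38+CD26+ minus gp38+CD26- (3.39% of all genes), 1 for fibroblasts minus Ly51+gp38- (4.28%), 2 for mTEC minus cTEC (2.87%) and 0 for fibroblasts minus CD31+ (8.1%; 4 at an unadjusted p of at most 0.05). With so few members called, the shares are not set apart from those over all genes. The 4 calls were Hoxa7 in both fibroblast contrasts, and Hoxc4 and Hoxd8 between mTEC and cTEC.

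Within the medulla at 4 weeks, mTEChi and mTEClo differed in 10 of 27 members, where 17.3% of all genes were called. Here too, members found mainly in medullary cells passed the low-count filter through them, so this excess is not read as a result. Only 1 member was called with the TXCK libraries alone and 2 with the DFCK libraries alone. Median marker sums in mTEChi and mTEClo were 224 and 2369 CPM for erythroid, 2001 and 3448 CPM for mural and 484 and 727 CPM for mesothelial cells. Those of neural crest (24.7 and 5.39 CPM) and haematopoietic cells (17.1 and 0 CPM) went the other way. The part of these markers in the calls was not tested. Hoxb13 was at 15.5, 27.8 and 43.4 CPM in mTEChi and had counts in 2 of 6 mTEClo libraries (log2 difference 4.27, SE 1.36, adjusted p = 0.0372), a call lost with DESeq2, as was that of Hoxa9. Hoxc11 (at least 82.3-fold, adjusted p = 0.000306), Hoxc6 (at least 114-fold, adjusted p = 0.00780), Hoxb6 (at least 123.6-fold, adjusted p = 0.0224), Hoxa9 (at least 67.9-fold, adjusted p = 0.0118), Hoxc4 (at least 49.7-fold, adjusted p = 0.00192) and Hoxd9 (at least 20.9-fold, from 2 of 6 libraries, adjusted p = 0.0166) were also higher in mTEChi. Hoxa3 (0.127 against 8.61 CPM, -5.64, SE 1.198, adjusted p = 0.00103) and Hoxa2 (1.22 against 13.0 CPM, -3.12, SE 0.99, adjusted p = 0.0250) were lower. The anterior genes Hoxa2 and Hoxa3 thus ran from cTEC through mTEClo to mTEChi in falling order at 4 weeks, with medians of 28.5, 15.1 and 1.17 CPM for Hoxa2 and 14.2, 8.47 and 0 CPM for Hoxa3, though mTEClo was not tested against cTEC.

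Hoxa2 and Hoxa3 were also counted in the TEC of the newborn single-cell libraries. In all 9083 TEC, Hoxa3 was at 20.3 ± 1.8 CPM (18.3 to 23.1), Hoxa2 at 14.4 ± 1.7 CPM (12.2 to 17.5) and Hoxb2 at 13.8 ± 2.7 CPM (9.47 to 16.9) over 6 libraries. Hox1 to Hox3 genes made up 79.8% of their Hox level (from the mean CPM over libraries). A Hoxa2 UMI was in 474 of 9083 TEC (5.22%) and in 4 of 535 thymocytes (0.748%), which should lack it, with fewer UMIs per cell. A Hoxa3 UMI was in 647 TEC (7.12%) and 16 thymocytes (2.99%). Hoxb2 was in 451 TEC (4.97%) and 21 thymocytes (3.93%), at 15.5 CPM in thymocytes, and was not told apart from background. Fibroblast markers summed to 974 CPM in TEC, 1698 CPM in thymocytes and 14585 CPM in fibroblasts.

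Among TEC subtypes, Hoxa3 was at 26.1 ± 5.2 CPM in mature cortical (McTEC), 21.8 ± 1.7 in perinatal cortical (PcTEC), 18.2 ± 8.1 in intertypical (ItTEC), 16.99 ± 7.4 in proliferating (PrTEC) and 5.8 ± 3.3 in mature medullary TEC (MmTEC). Hoxa2 was at 14.9 ± 1.3 CPM in PcTEC and 2.5 ± 2.7 CPM in MmTEC, and at 16.0 to 17.4 CPM in the other 3 with SDs of 8.1 to 13.8. The first 4 subtypes did not differ beyond their SDs in either gene, and the MmTEC means lay below them. MmTEC libraries (0 to 7.44 CPM of Hoxa2 and 0 to 9.62 CPM of Hoxa3) still overlapped with those of McTEC and PrTEC for Hoxa2 and of ItTEC for Hoxa3. MmTEC had a broad Hox content. Of its Hox level 31.1% came from Hox1 to Hox3, 27.8% from Hox6 to Hox8 and 24.2% from Hox9 to Hox13 genes. The Hox9 to Hox13 sum in MmTEC was 0, 45.7 and 10.501 CPM in the Tbx1+/-Crkl+/- libraries and 26.1, 4.29 and 81.5 CPM in the littermates.

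The cells that held such transcripts were counted for 10 genes chosen after their values in MmTEC were seen, so that the shares are a description of that choice. At least 1 UMI of Hoxa9, Hoxb6, Hoxb7, Hoxb8, Hoxb9, Hoxb13, Hoxc6, Hoxc8, Hoxc9 or Hoxc11 was found in 71 of 518 MmTEC (13.7%), and 11 cells had more than 1 of these genes; at this depth a cell without a UMI may still express them. The same share was 0.467% in the other TEC, 0.499% in fibroblasts, 0.427% in mural cells, 0.721% in endothelium and 0.748% in thymocytes, at median depths of 3170 UMIs per cell in MmTEC, 2937 in other TEC and 2071 in thymocytes. Hoxb13 came from 11 MmTEC of only 2 libraries (14.4 and 47.6 CPM), Hoxc6 from 18 cells, Hoxb9 from 14 and Hoxb6 from 12. Aire, the regulator that marks mature medullary epithelium, had a UMI in 431 of the 518 MmTEC (83.2%).

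**Figure D5:**
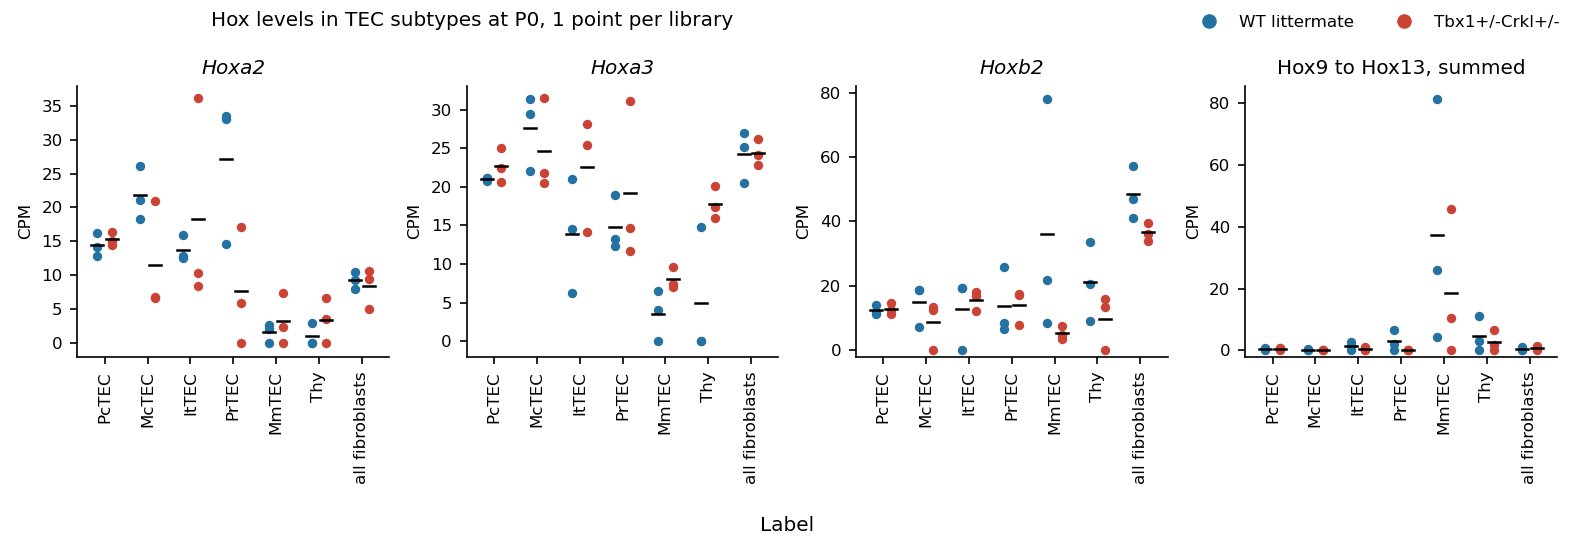
Level (CPM) of Hoxa2, Hoxa3, Hoxb2 and the sum of Hox9 to Hox13 genes in 5 TEC subtypes, thymocytes (Thy) and pooled fibroblasts of the newborn thymus, 1 point per library, wild-type and Tbx1+/-Crkl+/-, with a bar at the mean. Hoxa2 and Hoxa3 are lowest in MmTEC among TEC, where the Hox9 to Hox13 sum reaches 81.5 CPM, and both genotypes overlap.

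No member was called between the libraries labelled Tbx1+/-Crkl+/- and wild type. edgeR called 0 of 49 member and cell-type pairs, against 0.0326% of all 138163 gene pairs, and DESeq2 called 0. At an unadjusted p of at most 0.05 there were 7 pairs by edgeR and 3 by DESeq2. The share of all pairs at that p is not given here, so these counts are not read as an excess. The 7 are not separate, since they hold Hoxb2 in CapFb1a, in MedFb1b and in the pooled fibroblasts that include both. The largest difference was Hoxd8 in EnVL, at 37.5, 40.6 and 11.4 CPM in Tbx1+/-Crkl+/- and 102, 99.2 and 70.3 CPM in littermates (log2 difference -1.57, SE 0.55, adjusted p = 0.945). Hoxb2 in pooled fibroblasts was at 34.01, 36.2 and 39.5 CPM against 41.2, 47.1 and 57.2 CPM (-0.47, SE 0.21, adjusted p = 0.574). These values did not overlap between the genotypes, and neither passed the test.

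Of the 9 TALE cofactors, 3 to 9 were called among the 5 ages in each of the 11 subtypes, where 56.7% of all gene and subtype pairs were called. That share is pooled over the 11 subtypes, and the share of each is not given here, so counts in 1 subtype are not set against it. In every subtype most of the cofactors called were lower at 4 weeks (for example 7 lower and 1 higher of 9 in CapFb1a, and 3 lower and 0 higher of 7 tested in EnC). Their median log2 difference of 4 weeks from E12.5 was -0.80 to -1.65 across subtypes, where that of all genes was -0.08 to 0.12. In sorted cells 2 of 9 tested cofactors were lower at 4 weeks in gp38+CD26+ fibroblasts (13.2% of all genes called), 3 of 8 in gp38+CD26- fibroblasts (24.3%) and 1 of 8 in cTEC (22.3%). Meis1 was lower in both fibroblast populations (-1.18, adjusted p = 0.0174, and -1.16, adjusted p = 0.000287) and Pknox1 in gp38+CD26- (-0.85, adjusted p = 0.0238), while 0 were called in CD31+, Ly51+gp38- and mTEC. At P0 6 of 9 were higher in fibroblasts than in endothelium (Meis1 6.31 and Meis3 6.35 on the log2 scale) and 1 was lower, where 34.6% of all genes were called.

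Regulators of Hox transcription, such as Polycomb and trithorax proteins and retinoic acid enzymes and receptors, were called in mixed directions, beside the same pooled 56.7% of all pairs. Subtypes differed in how many of all genes were called, so the range of calls below is not read as a result about the regulators. The calls ran from 10 of 23 tested in CapFb3 (3 higher and 7 lower at 4 weeks) to 23 of 23 in CapFb1a (8 higher and 15 lower), with 18 of 23 in EnC (13 higher and 5 lower). Of the 8 third-pouch partners, among them Pax1, Pax9, Eya1 and Foxn1, 6 of 7 tested were lower in fibroblasts than in TEC at P0 (44.0% of all genes called) and 7 of 7 at 4 weeks (39.9%), and in CapFb1a 5 of 6 were lower and 1 was higher at 4 weeks. In cTEC Pax1 was higher at 4 weeks (0.55) and Pax9 (-1.26), Eya1 (-0.53) and Six4 (-0.83) were lower. The noncoding genes of the clusters, led by Hotairm1 (8345 UMIs), Hoxb3os (8208) and Hoxaas3 (4675), were lower at 4 weeks in 4 of 4 tested in CapFb1a, and every called one was also lower in CapFb1b, CapFb2a, MedFb1a and Pr. In EnC 4 were higher and 1 lower of 5, in Pc 3 and 1 of 4, in VSM 2 and 1 of 3 and in EnVL 2 and 1 of 5, while CapFb2b had 1 higher and 3 lower and CapFb3 1 and 1. Directions by age within the single-cell subtypes are those of 4 weeks against the single E12.5 library. These lists were not examined from E16.5 on alone. No gene of these lists was called between the genotypes.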

How the data were processed

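The deposited files hold counts: UMI counts per gene and cell, made by the authors with Cell Ranger 3.1.0 for mm10, with their subtype labels, and read counts per gene of sorted cells. STAR 2.5.3a and HTSeq are named in the submitters' processing notes. The authors kept cells by gene number and mitochondrial share and removed doublets; no cell filter was added. Cell barcodes shared between libraries (310 development and 88 genotype cells) were kept.

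UMIs were summed per library and label, and levels needed at least 5 cells. Tests used edgeR 4.0.16 (R 4.3.3) quasi-likelihood fits with TMM and Benjamini-Hochberg adjustment over all genes, on labels with at least 20 cells in every library and bulk libraries over 1000000 gene counts; rows that name no gene (11.8% of bulk counts) were left out. DESeq2 1.42.0 was an alternative, and limma 3.58.1 served edgeR. Of 39179 bulk identifiers 37607 matched a symbol; Hoxd4 was not used there. The bulk labels carry 2 prefixes, TXCK and DFCK, with 3 libraries of each in every group before the filter. Scripts were tested on simulated data with 200 changed genes. Python 3.11.15, numpy 2.4.6, pandas 2.3.3, scipy 1.17.1 and matplotlib 3.10.9 were used.

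Members were all symbols of the rule. Those at 20 CPM or more in a subtype were described with values, and in each test the called members with the largest changes, up to 10, were named; other lists are given by counts and called genes. Single-gene results of some members and listed genes are not reported here. Members and lists were chosen with earlier results of these data known.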

Additional observations from a re-analysis of the deposited data

Results flagged for a closer look

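The highest library stood apart from its group for Hoxa2 in P0 Ly51+gp38- cells, at 48.0 CPM with 0.672 of the group's range between it and the next, and for Hoxa2 in P0 cTEC, at 58.5 CPM with 0.660 of the range. These were 2 of 70 groups of libraries examined, and chance gives about 1 in 20.

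In bulk, 4 of the member and contrast pairs given above differed between 4 weeks and P0 by edgeR's interaction test. For Hoxa7, gp38+CD26+ minus gp38+CD26- gave an adjusted p of 0.0453, and fibroblasts minus Ly51+gp38- cells gave 0.0148. For Hoxd8 (adjusted p = 0.0212) and Hoxc4 (adjusted p = 0.000776) the mTEC minus cTEC difference changed. Hoxc4 had counts in 5 of 6 mTEC libraries at P0 and 1 of 6 at 4 weeks, and in 0 and 2 of 6 cTEC libraries. Hoxd8 had counts in 3 of 6 mTEC libraries at P0 and in 0 at 4 weeks, and in 0 and 1 of 6 cTEC libraries.

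The development table holds a further entry named Hoxd4.1 with 49 UMIs, beside 8 for Hoxd4. It does not match the rule and was left out of all sums.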

How the results depend on the processing

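The number of Hox genes called moved most when the bulk libraries of 1 label prefix were used alone. With TXCK libraries alone the age comparisons called 6 members in gp38+CD26+ (main 2), 1 in Ly51+gp38- (main 0), 1 in mTEC (main 0) and 0 in cTEC (main 1). In gp38+CD26- they called 3, all higher (Hoxd8 10.78, Hoxa5 8.66 and Hoxd9 8.73 on the log2 scale), in place of Hoxa2 and Hoxa3, which are lower in the main result. The P0 fibroblast to Ly51+gp38- contrast gave 0 (main 1). At 4 weeks the CD26 contrast gave 0 (main 2), mTEC minus cTEC 5 (main 18), fibroblasts minus CD31+ 2 (main 6) and fibroblasts minus TEC 6 (main 13). With DFCK libraries alone these comparisons gave 0 in gp38+CD26+, 0 in gp38+CD26- (main 2), 0 in cTEC, 6 for P0 mTEC minus cTEC (main 10), 4 for P0 fibroblasts minus CD31+ (main 13), 0 for P0 fibroblasts minus Ly51+gp38-, and at 4 weeks 0, 1, 2 and 6. DESeq2 called 2 members by age in CD31+ and 2 in Ly51+gp38- (main 0), 1 in the P0 CD26 contrast and 1 in the 4-week Ly51+gp38- contrast (main 0). Without a filter on low counts P0 mTEC minus cTEC gave 16 and the 4-week CD26 contrast 1. All 14 groups in 1 fit gave 2 in CD31+, 1 in Ly51+gp38-, 1 in gp38+CD26- (Hoxb1, lower, in place of Hoxa2 and Hoxa3) and 2 in mTEC by age. In cTEC that fit called Hoxc4 as higher (5.64, adjusted p = 0.0106) in place of Hoxa2 (-0.57, adjusted p = 0.826), and in gp38+CD26+ it lost Hoxc4 and Hoxc5 (adjusted p = 0.276 and 0.0588). The label prefix as a term gave 2 in mTEC, and the low-depth library included gave 1 in gp38+CD26+. Leaving out 1 gp38+CD26+ library at a time gave 1 to 3 by age, the lowest without replicate 4, 5 or 6. For the 4-week contrasts it gave 1 to 2 with gp38+CD26- (1 without replicate 4 or 5), 0 to 1 with Ly51+gp38- (1 without replicate 6), 5 to 6 with CD31+ and 12 to 14 with TEC. Hoxd8 in P0 fibroblasts minus TEC changed sign with TXCK alone (-0.15, adjusted p = 0.9999). For mTEChi minus mTEClo, a comparison added with its alternatives after seeing the data, TXCK alone gave 1 and DFCK alone 2 (main 10). Of 87 called pairs of a gene and a comparison, 259 of 289 values under full-size alternatives kept their call. With 1 prefix alone 64 kept it, 99 lost it and 1 changed sign, and 12 lost it with 1 library left out; the causes were not tested.

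In single cells, 58 pairs were called by age from E16.5 on (main 117). Leaving out 1 library gave at least 92 (without E12.5), and other settings gave 81 to 150. Calls of Hoxc5 (main 4) and Hoxb6 (main 1) dropped to 2 and 0 subtypes without 1 of several libraries. Genotype calls stayed at 0 in every setting, 0 to 0 with 1 library left out. Replicate numbers did not pair the libraries (correlations of deviations -0.30 to 0.06 between ages and -0.64 to 0.27 between genotypes), and a replicate block gave 116 and 0 calls. Of the 18 members at 5 CPM or more, 9 kept their highest subtype by the share of cells with a UMI after thinning to 2000 UMIs per cell, 12 by the median or with at least 20 cells. Shallow libraries limit members under 100 UMIs, and intervals were not computed for them.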
